A study of Homo sapiens with 24 samples.

Results

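The collagen family was taken as every gene whose symbol is COL, a number, A and a number (COL1A1, COL4A5 and so on). The rule found 44 genes among the 58735 entries of the deposited count files. By textbook class 11 of them encode fibrillar collagens, 8 encode collagens of the basement membrane and 25 encode others. The study sequenced polyadenylated RNA from 24 libraries of 3 established human cell lines, all from triple-negative breast cancers (tumours without the oestrogen and progesterone receptors and without amplified HER2). The inhibitors were 5 uM tazemetostat, which blocks the histone methyltransferase EZH2 (EZH2i below), and 5 uM ipatasertib, which blocks the AKT kinases (AKTi below). HCC1395 was given DMSO (the solvent), EZH2i, AKTi or EZH2i+AKTi, and HCC38 and HCC1937 were given DMSO or EZH2i+AKTi, with 3 libraries (replicates A, B and C) in each of the 8 groups. The labels describe a time course for a different line and assay, so how long these cells were treated is not clear. Whether replicates were grown as separate cultures is not stated. The p-values therefore rest on the spread among these libraries alone, and that spread may be technical.

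Collagens are secreted or membrane proteins in which chains wind into a triple helix. Fibrillar collagens assemble into the fibres of the stroma, and FACIT collagens (fibril-associated, with interrupted helices) decorate those fibres. Type IV collagens form the sheet-like network under epithelia and around vessels, and collagens XV and XVIII link basement membranes to the matrix around them. In breast tissue most fibrillar collagen is known to come from fibroblasts, while epithelial cells contribute to the basement membrane.

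Library totals ran from 33469927 to 51815656 counts. Levels are given as CPM (counts scaled to a fixed library total), scaled by TMM over all 24 libraries. Changes are log2 changes with the standard error of the edgeR quasi-likelihood fit, and a gene is called at a Benjamini-Hochberg adjusted p under 0.05 over all genes tested. The low-count filter kept 37 members for HCC1395, 31 for HCC38 and 28 for HCC1937, and 38 when all lines were fitted together. A member that passed through a group where it is high was likely to differ, so counts over tested members do not stand for the whole family. Epithelial markers were present in HCC38 and HCC1937, where CDH1 averaged 241 and 694 CPM under DMSO. In HCC1395 CDH1 averaged 0.347 and EPCAM 1.75 CPM, while KRT14 stood at 431 and vimentin (VIM) at 1529 CPM, so the defining epithelial adhesion markers are near 0 there. Of 6 fibroblast markers 1 passed 1 CPM in each group. DCN and LUM had no counts in the DMSO libraries of HCC38 and HCC1937, and DCN averaged 0.192 CPM in those of HCC1395. The summed fibroblast markers of HCC1395 ran from 3.75 to 4.01 CPM under DMSO, 10.7 to 11.8 under EZH2i, 4.98 to 6.17 under AKTi and 19.2 to 22.6 under both. Within that list PDGFRA went from a mean of 2.33 CPM under DMSO to 19.7 under both. THY1 went the other way, from 0.918 to 0.406 CPM (-1.19 ± 0.31, adjusted p = 0.00279), and DCN and PDGFRB were not called. The part of the fibroblast list in the results was not tested. Of 3 endothelial markers, CDH5 and PECAM1 averaged 14.6 and 21.7 CPM in HCC1937 under DMSO, and the summed list ran from 34.6 to 38.0 CPM under DMSO and 64.5 to 69.1 under EZH2i+AKTi. Its part in the HCC1937 results was not tested either. The mitochondrial share of counts in HCC1395 ran from 3.77 to 3.92% under DMSO, 4.49 to 5.19% under EZH2i, 5.34 to 5.72% under AKTi and 6.14 to 6.30% under both inhibitors. In HCC1937 it ran from 4.81 to 6.37% under DMSO and 6.72 to 8.54% under EZH2i+AKTi. Treated and DMSO libraries did not overlap in either line, and the part of this in the treatment changes was not tested. HCC38 EZH2i+AKTi replicate C stood apart from its group with 7.77% against 4.76 and 5.19%, and HCC38 results are given with and without it where it decides them. These are bulk libraries, in which fewer cells of a type and less RNA per cell cannot be told apart.

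HCC1395 carried the most collagen RNA. The family took 0.517% of its counts under DMSO, 0.138% in HCC38 and 0.129% in HCC1937. Summed over the family, the 3 DMSO libraries held 5094, 5395 and 5404 CPM in HCC1395, 1348, 1389 and 1399.5 in HCC38, and 1356, 1229 and 1252 in HCC1937. All HCC1395 libraries lay above all libraries of the other lines. Per kilobase of annotated exon, COL6A2 (216 CPM per kb), COL6A1 (168), COL5A1 (121) and COL1A2 (65.7) stood highest in HCC1395 under DMSO. COL6A1 and COL6A2 encode chains of the beaded filaments of type VI, COL5A1 a chain of type V, which sets fibril width, and COL1A2 a chain of type I, the main fibre of skin and bone. In HCC38 the same scale put COL6A2 (66.5) and COL6A1 (59.3) first and COL4A2 (7.91) next. In HCC1937 COL6A1 (64.4) led COL6A2 (44.7) and COL5A1 (19.5).

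**Figure D1:**
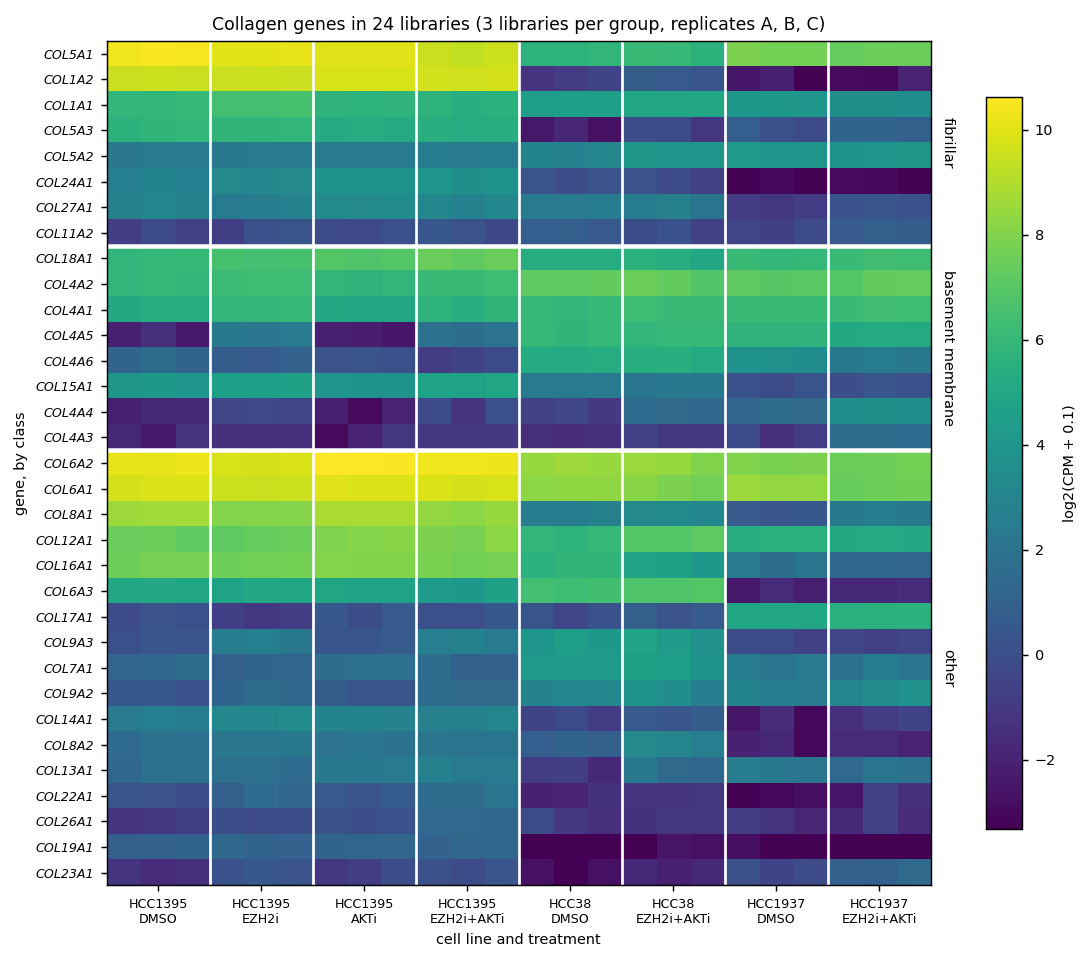
Rows are the 33 members with a group mean of at least 1 CPM in at least 1 group, by class, columns the 24 libraries, and the colour is log2(CPM + 0.1). The rows of COL1A2, COL5A3 and COL8A1 are brightest in HCC1395, those of COL4A5 and COL4A6 in HCC38 and HCC1937, and that of COL17A1 in HCC1937.

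Under DMSO the medians of the fibrillar and basement membrane classes differed from HCC1395 in opposite directions in the other lines. Of 38 members tested, HCC38 was higher than HCC1395 in 12 (38.2% of all genes tested were called higher) and lower in 22 (36.5% of all genes). HCC1937 was higher than HCC1395 in 12 (all genes 37.3%) and lower in 20 (35.7%), and higher than HCC38 in 8 (36.2%) and lower in 20 (35.6%). The median log2 difference of the members was -1.08 for HCC38 and -1.74 for HCC1937 against HCC1395, and -0.60 for HCC1937 against HCC38, beside medians of 0.022, 0.007 and 0 over all genes. Those medians hold members with no count in a group at the limit that 3 counts a library allow, and the last leaves out COL19A1, which was at or under that limit in both lines. Markers moved with the line too: summed CPM of 4 mesenchymal markers ran from 2351 to 2575 in HCC1395, 1072 to 1159 in HCC38 and 159 to 197 in HCC1937, and that of the 7 epithelial markers from 493 to 513, 3317 to 3634 and 6054 to 6540.3. Their part in the line differences was not tested. Against HCC1395 the 9 fibrillar members tested had medians of -1.38 in HCC38 and -2.64 in HCC1937. The 8 basement membrane members had medians of 0.998 and 1.24, so the class medians lay on opposite sides of 0. Single members went both ways. In HCC38 2 fibrillar members were called higher and 6 lower, and 5 basement membrane members higher and 2 lower. In HCC1937 the calls were 1 higher and 7 lower, and 6 higher and 1 lower. No difference between classes was tested.

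COL1A2 showed the fibrillar contrast at its widest among the genes named here. Its DMSO libraries held 726, 748 and 723 CPM in HCC1395, 0.342, 0.449 and 0.592 in HCC38 and 0.0721, 0.132 and 0 in HCC1937. The HCC38 level was lower by 10.62 on the log2 scale (a log2 difference of -10.62 ± 0.15, adjusted p = 2.15e-29). COL5A3, a minor chain of type V, had 49.7, 54.8 and 61.2 CPM in HCC1395, 1.73, 0.991 and 0.833 in HCC1937 and 0.0856, 0.180 and 0.0564 in HCC38. COL8A1, a chain of the short-chain network of vascular and corneal basement membranes, had 379.5, 407 and 411 CPM in HCC1395, 5.85, 5.69 and 6.77 in HCC38 and 1.49, 1.17 and 1.35 in HCC1937. All 3 genes were ordered without overlap between lines. COL6A3, the long chain of type VI, did not follow its partners: it averaged 32.6 ± 1.72 CPM (SD, n = 3) in HCC1395, 83.2 ± 4.04 in HCC38 and 0.147 ± 0.0649 in HCC1937, where COL6A1 and COL6A2 averaged 344 ± 19.1 and 241 ± 14.7 CPM. COL17A1, the hemidesmosome collagen that anchors epithelial cells to the basement membrane, had 29.4, 29.8 and 30.1 CPM in HCC1937 against 1.11, 0.658 and 1.04 in HCC38 and 0.834, 1.08 and 0.945 in HCC1395. HCC1937 was higher than HCC1395 by a log2 difference of 4.96 ± 0.15, adjusted p = 3.14e-22, and the other two lines overlapped. COL7A1, the anchoring fibril of skin, averaged 19.3 ± 0.804 CPM in HCC38, 4.95 ± 0.916 in HCC1937 and 2.60 ± 0.387 in HCC1395, and was called in each of the 3 line comparisons.

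Under each treatment of HCC1395 more collagen genes were called higher than lower, which was so over all genes too. With EZH2i 16 of 37 members tested rose and 6 fell, beside 18.8% of all genes called higher and 14.9% called lower. With AKTi 13 rose and 7 fell (27.1 and 22.6% of all genes), counts near those shares. With both, 21 rose and 6 fell (32.5 and 27.4%). The members' median log2 changes were 0.22, 0.26 and 0.32, beside 0.015, 0.061 and 0.065 over all genes. The 3 comparisons share their DMSO libraries. Marker sums of HCC1395 moved with treatment: the 4 mesenchymal markers ran from 2351 to 2575 CPM under DMSO, 1941 to 1999 under EZH2i, 3839.7 to 4063 under AKTi and 3071 to 3409 under both. The 7 epithelial markers ran from 493 to 513, 673 to 714, 459 to 494 and 664 to 778 CPM in the same order. KRT14, with a mean of 431 CPM under DMSO, was the largest part of that sum. Its members moved in opposite directions with AKTi: KRT8 (1.556 ± 0.077) and KRT18 (0.755 ± 0.07) rose, while KRT14 (-0.405 ± 0.052) and KRT5 (-1.349 ± 0.116) fell. The other members of the list were not called with AKTi. VIM, with a mean of 1529 CPM under DMSO, was the largest part of the mesenchymal sum. VIM, CDH2, FN1 and ZEB1 all fell with EZH2i. VIM and FN1 rose with AKTi, where CDH2 and ZEB1 were not called. With both, VIM rose (0.585 ± 0.065), CDH2 (-0.294 ± 0.051) and ZEB1 (-0.433 ± 0.104) fell, and FN1 was not called. With EZH2i+AKTi the epithelial sum ran from 2627 to 3191 CPM in HCC38 and 5058 to 5729 in HCC1937, below DMSO in both lines, and the mesenchymal sum from 1209 to 1506 and 196 to 206. The part of these lists in the collagen changes was not tested. In HCC38 EZH2i+AKTi raised 11 of 31 members and lowered 3 (16.8 and 14.5% of all genes), with a median of 0.21 beside -0.014. Without replicate C of the treated group 16 rose and 3 fell there. In HCC1937 11 of 28 rose and 9 fell (30.5 and 28.8%), with a median of 0.020 beside 0.027, so the members' counts there lay near those of all genes. The number called lower with AKTi was 4 without DMSO replicate B and 3 without AKTi replicate B. In HCC38 the number called lower was 1 without DMSO replicate A and 1 without DMSO replicate B.

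The classes of HCC1395 are described next, and no difference between classes was tested. Of 8 basement membrane members 6 rose and none fell with EZH2i, 1 rose and 3 fell with AKTi, and 6 rose and 1 fell with both, with medians of 0.56, -0.24 and 0.83. Over all genes the shares called were 18.8 and 14.9%, 27.1 and 22.6%, and 32.5 and 27.4%, with medians of 0.015, 0.061 and 0.065. The corresponding 9 fibrillar members gave 2 higher and 2 lower, 3 and 3, and 3 and 3, with medians of 0.024, 0.27 and 0.089. Their counts lay near the shares of all genes under each treatment. Of 9 FACIT members 5 rose with EZH2i and none fell, with a median of 0.71. Summed CPM of the basement membrane class ran from 171 to 189 under DMSO, 257 to 270.1 under EZH2i, 212 to 229.7 under AKTi and 291 to 346 under both, without overlap between DMSO and any treatment. COL18A1 took 34.47% of that sum under DMSO and 52.55% under AKTi, and was the only member of the class called higher with AKTi. The fibrillar sum ran from 2123 to 2304 CPM under DMSO and from 1562 to 1755 under both. Its leading gene, COL5A1, took 61.0% of the sum under DMSO and had 1269, 1421 and 1379 CPM there and 739.8, 664 and 772 under both (log2 change -0.91 ± 0.058, adjusted p = 2.81e-11). The other collagens summed to 2799 to 2971 CPM under DMSO, 2294 to 2409 under EZH2i, 3532 to 3660.4 under AKTi and 2927 to 3068 under both. In HCC38 and HCC1937 the basement membrane sums of DMSO (348 to 372 and 328 to 361 CPM) and EZH2i+AKTi (324 to 419 and 317 to 379 CPM) overlapped.

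**Figure D2:**
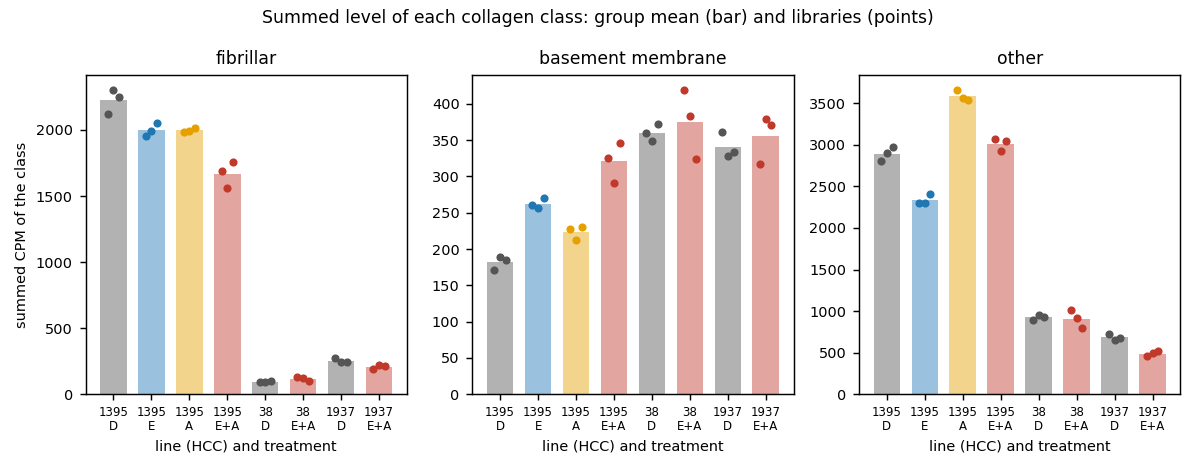
Summed CPM of each class (linear axis from 0) by group, with the group mean as a bar and the 3 libraries as points; D is DMSO, E EZH2i, A AKTi and E+A both. The basement membrane sum of HCC1395 is above DMSO in all 9 treated libraries, and fibrillar sums of HCC38 and HCC1937 lie far below those of HCC1395.

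**Figure D3:**
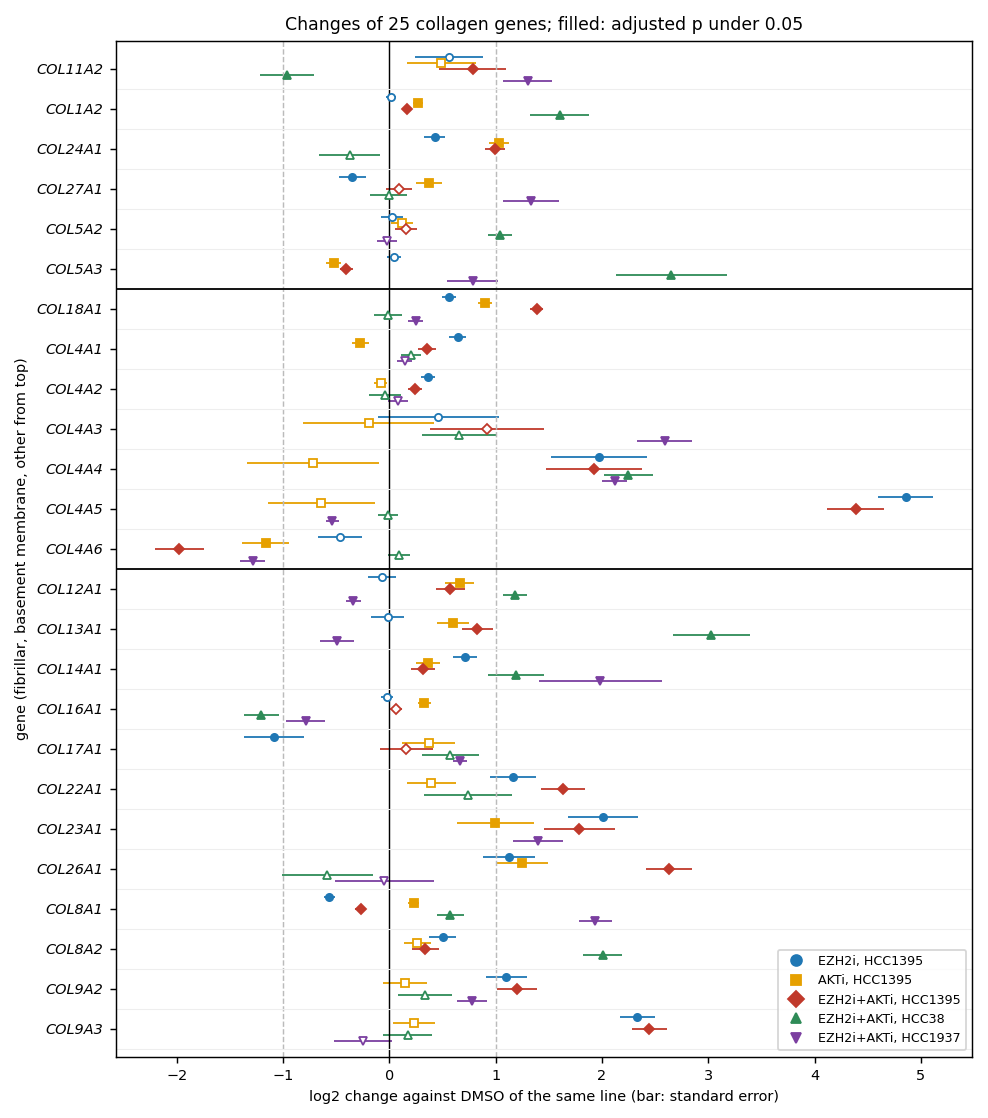
Log2 change against DMSO of the same line for 25 members, with bars for the standard error; filled symbols have an adjusted p under 0.05, and dashed lines mark a 2-fold change. COL4A5 lies farthest from 0 in HCC1395 with EZH2i and with both inhibitors, and COL13A1 and COL5A3 lie farthest to the right in HCC38.

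The type IV genes lie in head-to-head pairs, in which neighbouring genes start close together and are transcribed apart. By RefSeq start sites (GRCh38.p14), COL4A1 and COL4A2 on chromosome 13 start 127 bases apart, COL4A3 and COL4A4 on chromosome 2 start 419 bases apart, and COL4A5 and COL4A6 on chromosome X start 380 bases apart. The chains of the first pair make the common network of basement membranes, COL4A3 and COL4A4 join COL4A5 in that of the kidney filter and other specialised sites, and COL4A5 also pairs with COL4A6 in skin and smooth muscle. Shown here, for 2 of the pairs, is a part of the stretch between the partners, 5′ to 3′ on the plus strand, because it lies between the start sites of both partners. Each is the longest run outside every exon of GENCODE 29 within the 250 bases before the RefSeq start of the gene on the plus strand, so it does not reach the RefSeq start of the partner. Capitals mark CpG. Exons of COL4A1 and COL4A2 leave no such stretch of 50 bases.
COL4A3 with COL4A4 (chr2:227164454-227164564, GRCh38.p14, plus strand): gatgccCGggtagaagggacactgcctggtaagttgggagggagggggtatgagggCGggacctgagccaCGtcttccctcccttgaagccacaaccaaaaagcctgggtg
COL4A5 with COL4A6 (chrX:108439588-108439837, GRCh38.p14, plus strand): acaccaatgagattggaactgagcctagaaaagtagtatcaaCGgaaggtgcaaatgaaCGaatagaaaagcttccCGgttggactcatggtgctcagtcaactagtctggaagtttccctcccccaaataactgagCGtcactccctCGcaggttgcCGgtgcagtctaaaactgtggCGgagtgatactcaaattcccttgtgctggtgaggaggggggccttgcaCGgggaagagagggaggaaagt
The first holds 3 CpG in 111 bases and the other 8 in 250. In windows of 300 bases (250 before the start and 50 after), COL4A1 and COL4A2 each had 45 CpG, COL4A3 24, COL4A4 29, COL4A5 8 and COL4A6 7 or 5 at its 2 starts, beside a median of 14 over 35114 RefSeq promoters. The promoter of COL4A5 was thus below that median and those of both autosomal pairs above it. CCAAT, searched on both strands, was in the windows of COL4A1, COL4A2, COL4A5 and COL4A6 and in 34.6% of all promoters. TATAAA was in none of the type IV windows and in 11.5% of all. These are letters in a window and not measured sites.

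COL4A5 (chrX:108439844-108697545, plus strand in GENCODE 29) had the widest change among the named members. In HCC1395 its libraries A, B and C held 0.135, 0.285 and 0.0834 CPM under DMSO, 4.82, 4.36 and 5.52 under EZH2i, 0.129, 0.106 and 0.0816 under AKTi and 3.62, 3.19 and 3.92 under both. All 6 libraries with EZH2i, alone or combined, lay above all 6 without it. The DMSO libraries A, B and C held only 5, 10 and 3 counts of COL4A5, and 3 counts are the limit used here. The sizes of its changes and line differences therefore rest on few counts. The log2 change was 4.86 ± 0.26, adjusted p = 1.1e-11 with EZH2i, 4.39 ± 0.27, adjusted p = 1.38e-11 with both and -0.64 ± 0.50, adjusted p = 0.309 with AKTi. Adding AKTi to EZH2i gave -0.47 ± 0.16, adjusted p = 0.0206, a call that ended without EZH2i replicate A or C or combination replicate A or B (lowest size -0.36, adjusted p up to 0.112). The levels reached in HCC1395 stayed far under those of the other lines, where DMSO libraries held 62.2, 56.3 and 63.3 CPM in HCC38 and 53.8, 53.3 and 54.5 in HCC1937. In HCC38 the treated libraries held 58.8, 62.1 and 62.9 CPM and overlapped DMSO (-0.015 ± 0.093, adjusted p = 0.92). In HCC1937 they held 35.5, 38.8 and 37.3 CPM, all below DMSO, and the gene fell (-0.54 ± 0.064, adjusted p = 3.62e-06). The response of HCC38 was lower than that of HCC1395 by a log2 difference of -4.38 ± 0.23, adjusted p = 1.77e-14, and that of HCC1937 by -4.93 ± 0.23, adjusted p = 1.02e-15.

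COL4A6 (chrX:108155607-108439497, minus strand), which shares its start region with COL4A5, went the other way. Its HCC1395 libraries held 2.13, 2.93 and 2.06 CPM under DMSO, 1.62, 1.496 and 2.01 under EZH2i, 1.08, 1.11 and 0.979 under AKTi and 0.462, 0.613 and 0.779 under both. AKTi lowered it (-1.17 ± 0.22, adjusted p = 0.000148), as did both together (-1.98 ± 0.23, adjusted p = 2.72e-07), and EZH2i alone gave -0.47 ± 0.21, adjusted p = 0.088. The combination was lower than EZH2i alone by a log2 difference of -1.51 ± 0.24, adjusted p = 1.95e-05 and than AKTi alone by -0.81 ± 0.25, adjusted p = 0.0154; the latter was -0.63 with adjusted p = 0.0873 without combination replicate A. In HCC1937 it fell from 13.6, 12.9 and 11.0 CPM to 4.72, 5.92 and 4.78 (-1.28 ± 0.12, adjusted p = 2.18e-07), and the groups did not overlap. HCC38 held 37.8, 36.8 and 40.3 CPM under DMSO and 44.9, 42.5 and 37.3 under treatment, which overlapped (0.088 ± 0.10, adjusted p = 0.556). In HCC1395 the pair therefore moved in opposite directions under both inhibitors, while in HCC1937 both partners fell.

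COL4A4 (chr2:227002711-227164453, minus strand) rose in every comparison that held EZH2i. Its HCC1395 libraries had 0.135, 0.199 and 0.195 CPM under DMSO, 0.675, 0.759 and 0.647 under EZH2i, 0.129, 0.0265 and 0.163 under AKTi and 0.770, 0.347 and 0.959 under both. The changes were 1.97 ± 0.46, adjusted p = 0.00201 with EZH2i, 1.92 ± 0.46, adjusted p = 0.00107 with both and -0.72 ± 0.62, adjusted p = 0.357 with AKTi. HCC38 went from 0.571, 0.688 and 0.395 CPM to 2.84, 2.70 and 2.49 (2.25 ± 0.23, adjusted p = 7.17e-05), and HCC1937 from 2.24, 2.93 and 2.75 to 11.4, 11.9 and 11.3 (2.12 ± 0.12, adjusted p = 1.04e-09). EZH2i+AKTi and DMSO libraries did not overlap in any of the 3 lines, while the AKTi libraries of HCC1395 overlapped DMSO. The responses of the lines to EZH2i+AKTi were not called different (adjusted p = 0.634, 0.837 and 0.758, with differences of 0.36 ± 0.51 for HCC38 and 0.21 ± 0.49 for HCC1937 against HCC1395 and -0.16 ± 0.31 between them). Its partner COL4A3 (chr2:227164565-227314792, plus strand) rose in HCC1937, from 0.794, 0.286 and 0.437 CPM to 3.01, 3.18 and 2.88 (2.59 ± 0.26, adjusted p = 5.95e-07). Elsewhere it stayed under 0.6 CPM and was not called, with 0.46 ± 0.57 for EZH2i and 0.91 ± 0.54 for both in HCC1395 and 0.66 ± 0.36 in HCC38. The HCC1937 response of COL4A3 was higher than that of HCC1395 by 1.67 ± 0.60, adjusted p = 0.0431, but it was not called when any 1 of 10 libraries was left out (1.12, adjusted p = 0.325, without HCC1395 DMSO replicate C). COL4A3 overlaps an exon of AC097662.1, and reads of the 2 may not be told apart without strand.

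The COL4A1 and COL4A2 genes (chr13:110148963-110307233, minus strand, and chr13:110305812-110513209, plus strand) moved less. COL4A1 held 35.6, 41.5 and 40.5 CPM in HCC1395 under DMSO, 58.5, 61.2 and 63.1 under EZH2i, 34.4, 30.8 and 32.4 under AKTi and 52.4, 43.3 and 55.7 under both. COL4A2 held 57.6, 63.6 and 60.7, 76.3, 77.5 and 79.6, 58.7, 54.7 and 59.1 and 70.1, 66.7 and 79.9 CPM. Both genes rose with EZH2i (0.64 ± 0.081, adjusted p = 3.99e-06 for COL4A1, and 0.36 ± 0.063, adjusted p = 0.000114 for COL4A2) and with both inhibitors (0.35 ± 0.081 and 0.24 ± 0.063, adjusted p = 0.000885 and 0.00234). With AKTi COL4A1 fell (-0.27 ± 0.083, adjusted p = 0.00966), though not without DMSO replicate B (-0.23, adjusted p = 0.0504) or AKTi replicate B (-0.24, adjusted p = 0.0504), and COL4A2 gave -0.083 ± 0.063, adjusted p = 0.293. Neither gene was called in HCC38 (0.21 ± 0.094 and -0.045 ± 0.15) or HCC1937 (0.14 ± 0.069 and 0.081 ± 0.09). COL4A1 was called in HCC38 without EZH2i+AKTi replicate C (0.27, adjusted p = 0.0113) and in HCC1937 without EZH2i+AKTi replicate A (0.18, adjusted p = 0.025). Under DMSO HCC38 had 62.8, 58.8 and 64.5 CPM of COL4A1 and 151, 149 and 158 of COL4A2, and HCC1937 71.2, 66.7 and 69.5 and 151, 130.04 and 133, all above HCC1395.

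**Figure D4:**
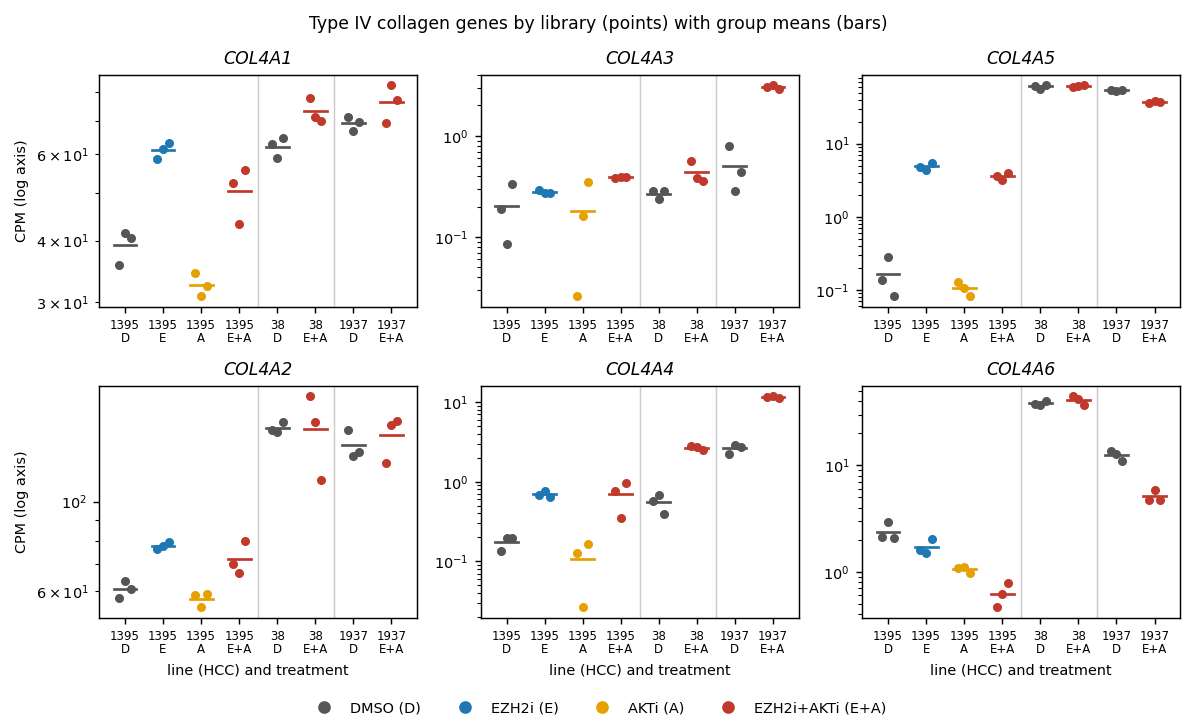
CPM (log axis) of the type IV genes, a column of panels for each head-to-head pair, with libraries as points and group means as bars. COL4A5 of HCC1395 rises from under 0.3 CPM to above 3 in every library that had EZH2i, COL4A6 of HCC1395 falls, and COL4A4 is higher after EZH2i+AKTi in all 3 lines.

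The other basement membrane collagens also answered in HCC1395. COL18A1 (chr21:45405137-45513720, plus strand), a heparan sulfate proteoglycan whose end fragment is endostatin, held 58.8, 63.7 and 65.6 CPM under DMSO, 95.0, 87.5 and 94.0 under EZH2i, 118, 111 and 123 under AKTi and 171, 150.2 and 174 under both. Each treated group lay above DMSO and the combination above all. It rose with EZH2i (0.56 ± 0.063), AKTi (0.90 ± 0.063) and both (1.39 ± 0.063, adjusted p = 1.69e-13), and the combined change differed from the sum of the single changes by -0.071 ± 0.088, adjusted p = 0.805. In HCC38 it did not pass (-0.01 ± 0.13, adjusted p = 0.962), and in HCC1937 it gave 0.25 ± 0.073, adjusted p = 0.00889 with overlapping libraries, a call that ended without DMSO replicate B or EZH2i+AKTi replicate B or C (adjusted p = 0.0512, 0.0739 and 0.0557). Exons of COL18A1 overlap SLC19A1 on the other strand. COL15A1, a related proteoglycan, averaged 16.5 ± 0.412, 24.1 ± 0.723, 14.4 ± 0.857 and 27.8 ± 1.86 CPM (SD, n = 3) in the same order. It rose with EZH2i (0.55 ± 0.069) and with both (0.74 ± 0.068, adjusted p = 7.14e-09). With AKTi it gave -0.20 ± 0.071, adjusted p = 0.0277, which was not called without DMSO replicate B or AKTi replicate B or C (adjusted p up to 0.105).

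Among fibrillar genes, COL1A1 and COL1A2 encode the 2 chains of type I collagen and did not move together. In HCC1395 COL1A1 averaged 60.6 ± 3.18 CPM with DMSO, 90.7 ± 3.08 with EZH2i, 53.7 ± 1.05 with AKTi and 48.4 ± 4.10 with both agents. It rose with EZH2i (0.58 ± 0.061, adjusted p = 2.12e-07) and fell with both (-0.33 ± 0.062, adjusted p = 9.06e-05). COL1A2 held 727, 748 and 743 CPM under EZH2i, which overlapped DMSO, 891, 895 and 877 under AKTi and 824, 788 and 863 under both, and rose with AKTi (0.27 ± 0.046, adjusted p = 4.31e-05). With both it gave 0.16 ± 0.046, adjusted p = 0.00413, or 0.13 with adjusted p = 0.0863 in a fit of those 2 groups alone. In HCC38 COL1A2 rose from 0.342, 0.449 and 0.592 CPM to 1.66, 1.42 and 1.22 (1.60 ± 0.27, adjusted p = 0.00176), which left it far below HCC1395, and COL1A1 gave 0.43 ± 0.094, adjusted p = 0.00623 (adjusted p = 0.0521 without DMSO replicate A). In HCC1937 COL1A1 fell (-0.54 ± 0.081, adjusted p = 3.62e-05) and COL1A2 did not pass the filter. COL3A1, the partner of type I in soft tissue, and COL2A1 of cartilage stayed at or under a mean of 0.250 CPM in every group and were not tested.

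Type V genes split by line. COL5A1 fell in HCC1395 with EZH2i (-0.31 ± 0.058), AKTi (-0.47 ± 0.058) and both, and in HCC1937 (-0.31 ± 0.065, adjusted p = 0.000746). In HCC38 it gave 0.17 ± 0.13, adjusted p = 0.362, and without EZH2i+AKTi replicate C it rose (0.33, adjusted p = 0.00305). COL5A3 (chr19:9959561-10010471, minus strand) fell in HCC1395 with AKTi, to 38.4, 39.0 and 38.2 CPM (-0.53 ± 0.066, adjusted p = 1.11e-06), and with both, to 43.7, 40.4 and 41.8 (-0.40 ± 0.065, adjusted p = 1.96e-05), whereas EZH2i alone left 56.9, 55.2 and 58.4 CPM, which overlapped DMSO (0.046 ± 0.065). It rose in HCC38, from 0.0856, 0.180 and 0.0564 CPM to 0.881, 0.833 and 0.360 (2.65 ± 0.52, adjusted p = 0.00386). In HCC1937 it went from 1.73, 0.991 and 0.833 CPM to 2.14, 2.05 and 1.90 (0.78 ± 0.24, adjusted p = 0.0107), with adjusted p = 0.0508 without DMSO replicate B and 0.0516 without C. The response of HCC38 exceeded that of HCC1395 by 3.10 ± 0.45, adjusted p = 3.09e-06. COL5A2 (chr2:189031896-189225312, minus strand), another chain of type V, was called in 1 of the 5 comparisons with DMSO: in HCC38 it rose from 7.82, 6.85 and 8.12 CPM to 16.4, 16.0 and 15.3 (1.04 ± 0.11, adjusted p = 0.000113). It was not called in HCC1395 under any treatment (0.024 ± 0.11, 0.12 ± 0.10 and 0.15 ± 0.10) or in HCC1937 (-0.023 ± 0.091).

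The remaining fibrillar genes had lower levels. COL24A1 (chr1:85729233-86156943, minus strand), a fibrillar collagen of developing bone and cornea, held 6.46, 7.68 and 6.48 CPM in HCC1395 under DMSO, 9.25, 8.89 and 9.45 under EZH2i, 14.2, 13.9 and 14.4 under AKTi and 14.7, 12.2 and 14.4 under both. It rose with each (0.42 ± 0.096, 1.03 ± 0.094, adjusted p = 1.15e-08, and 0.996 ± 0.093 for both), and the AKTi and combination libraries overlapped. COL24A1 was near 1 CPM in HCC38 (1.14, 0.898 and 1.07 under DMSO, 1.08, 0.833 and 0.526 under treatment) and at or under 0.027 CPM in each HCC1937 library. COL27A1 (chr9:114155560-114312511, plus strand), of cartilage, rose in HCC1937 from 0.457, 0.374 and 0.479 CPM to 1.06, 1.23 and 1.03 (1.33 ± 0.26, adjusted p = 0.00046) and was not called in HCC38 (5.13, 5.36 and 5.67 and 5.68, 6.60 and 4.12 CPM, -0.005 ± 0.17). In HCC1395 it held 6.94, 8.48 and 7.23 CPM under DMSO, 5.02, 5.86 and 6.79 under EZH2i, 9.57, 9.32 and 10.6 under AKTi and 8.47, 6.87 and 8.99 under both. The EZH2i change (-0.35 ± 0.12, adjusted p = 0.036) ended without DMSO replicate B or C or EZH2i replicate A or B (adjusted p from 0.0521 to 0.18), and the AKTi change (0.37 ± 0.12, adjusted p = 0.0135) ended without DMSO replicate A or C or AKTi replicate C (adjusted p from 0.0517 to 0.0714). COL11A2 (chr6:33162681-33192499, minus strand), a chain of type XI in cartilage, fell in HCC38 from 1.68, 1.74 and 1.41 CPM to 0.905, 1.04 and 0.554 (-0.97 ± 0.26, adjusted p = 0.0162) and rose in HCC1937 from 0.649, 0.506 and 0.833 to 1.49, 1.80 and 1.64 (1.30 ± 0.23, adjusted p = 0.000196). The HCC38 call ended without DMSO replicate A or B (adjusted p = 0.0533 and 0.068), but the difference between the 2 lines was called (2.24 ± 0.39, adjusted p = 4.35e-05). In HCC1395 COL11A2 held 0.484, 0.797 and 0.528 CPM under DMSO and 1.27, 1.08 and 0.719 under both, which overlapped; the call (0.78 ± 0.31, adjusted p = 0.0363) ended without any 1 of DMSO replicates A and C and combination replicates A and B (0.59 to 0.73). Under EZH2i and AKTi alone it held 0.499, 0.969 and 1.14 and 0.851, 0.743 and 0.951 CPM and was not called.

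The genes of type IX, a FACIT collagen of cartilage fibrils, rose with EZH2i in HCC1395. COL9A3 (chr20:62816244-62841159, plus strand) held 0.942, 1.22 and 1.20 CPM under DMSO, 5.73, 6.32 and 4.78 under EZH2i, 1.21, 1.25 and 1.495 under AKTi and 6.24, 6.78 and 5.33 under both. COL9A2 (chr1:40300487-40317813, minus strand) held 1.29, 1.34 and 1.03, 2.14, 3.16 and 2.46, 1.65, 1.19 and 1.22 and 2.93, 2.76 and 2.76 CPM. For both genes all 6 libraries with EZH2i lay above the 6 without it. COL9A3 changed by 2.33 ± 0.17, adjusted p = 7.9e-10 with EZH2i and 2.45 ± 0.16, adjusted p = 5.81e-11 with both, and COL9A2 by 1.10 ± 0.19, adjusted p = 0.000134 and 1.20 ± 0.19, adjusted p = 1.48e-05. With AKTi alone neither was called (0.23 ± 0.20 and 0.15 ± 0.21). COL9A1 rose in the same comparisons (2.26 ± 0.46 and 2.33 ± 0.46) but averaged 0.671 and 0.722 CPM there. The difference from the other lines was called for COL9A3: HCC38 held 16.3, 21.3 and 17.2 CPM under DMSO and 28.6, 20.9 and 13.4 under treatment (0.17 ± 0.23, adjusted p = 0.609), and HCC1937 0.818, 0.771 and 0.583 and 0.651, 0.518 and 0.654 (-0.25 ± 0.27, adjusted p = 0.458), with responses lower than in HCC1395 by -2.25 ± 0.29, adjusted p = 5.32e-07 and -2.70 ± 0.41, adjusted p = 8.66e-06. COL9A2 rose in HCC1937, from 7.69, 6.03 and 5.45 CPM to 9.15, 10.6 and 13.0 (0.78 ± 0.14, adjusted p = 0.000464), and in HCC38 went from 7.59, 8.95 and 8.21 to 14.2, 11.5 and 6.01 (0.33 ± 0.25, adjusted p = 0.343). Without replicate C of the treated HCC38 group both were called there, COL9A2 at 0.65 (adjusted p = 0.000245) and COL9A3 at 0.45 (adjusted p = 0.0144). COL9A3 overlaps TCFL5 in its exons on the other strand.

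Other FACIT genes differed by treatment and line. COL12A1 (chr6:75084326-75206051, minus strand), a stress-bearing FACIT of tendon and tumour stroma, held 174, 181 and 152 CPM in HCC1395 under DMSO, 142, 162 and 177 under EZH2i, 246, 276 and 284 under AKTi and 234, 218 and 309 under both. It rose with AKTi (0.66 ± 0.13, adjusted p = 0.0021) and with both (0.57 ± 0.13, adjusted p = 0.00388). HCC38 went from 56.97, 50.9 and 62.9 to 125, 124 and 147 CPM (1.18 ± 0.11, adjusted p = 4.39e-05), and HCC1937 fell from 41.6, 46.5 and 48.2 to 35.9, 37.6 and 34.6 (-0.34 ± 0.073, adjusted p = 0.000938). COL16A1 (chr1:31652247-31704319, minus strand), which links cells to fibrils, rose with AKTi in HCC1395 from 185, 217 and 216 CPM to 263, 258 and 257 (0.33 ± 0.06, adjusted p = 0.000119), and held 191, 202 and 213 under EZH2i and 226, 205 and 216 under both, which overlapped DMSO. It fell in HCC38, from 47.5, 55.5 and 55.4 CPM to 28.5, 24.0 and 17.5 (-1.21 ± 0.16, adjusted p = 0.000437), and in HCC1937, from 5.34, 3.04 and 4.27 to 2.497, 2.49 and 2.33 (-0.79 ± 0.18, adjusted p = 0.00181). Its exons overlap AC114488.2. COL22A1, a FACIT of tissue junctions, rose in HCC1395 from 1.21, 1.08 and 0.862 CPM to 1.76, 2.89 and 2.31 with EZH2i (1.16 ± 0.22, adjusted p = 0.00027) and 2.93, 3.02 and 4.01 with both (1.63 ± 0.21, adjusted p = 9.33e-07), and held 1.39, 1.19 and 1.58 under AKTi. In HCC38 it held 0.143, 0.150 and 0.310 CPM under DMSO and 0.343, 0.338 and 0.360 under treatment (0.74 ± 0.42, not called), and all HCC1937 libraries were at or under 0.543 CPM. COL14A1, which regulates fibril diameter, held 5.01, 6.46 and 5.92, 9.19, 8.72 and 10.4, 7.66, 7.70 and 7.10 and 6.78, 6.80 and 8.30 CPM in HCC1395 under DMSO, EZH2i, AKTi and both.

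COL14A1 rose with EZH2i (0.71 ± 0.11, adjusted p = 4.85e-05). Its calls with AKTi (0.36 ± 0.12, adjusted p = 0.0121) and with both (0.32 ± 0.11, adjusted p = 0.0224) ended without DMSO replicate A (0.26 and 0.21), and the latter also without combination replicate C (0.22). In HCC38 it rose from 0.628, 0.778 and 0.451 CPM to 1.52, 1.22 and 1.61 (1.19 ± 0.26, adjusted p = 0.00677). In HCC1937 it went from 0.0721, 0.242 and 0.0208 to 0.271, 0.444 and 0.611 CPM (1.98 ± 0.58, adjusted p = 0.00845), a change that was 3.23 without DMSO replicate B and 1.65 (adjusted p = 0.0542) without EZH2i+AKTi replicate C. COL19A1, a FACIT of muscle and brain, averaged 1.90 to 2.28 CPM over the HCC1395 groups and was called under no treatment there. It had no counts in the DMSO libraries of HCC38, where 3 counts would be 0.0846 to 0.0898 CPM. Its exons overlap LMBRD1. COL20A1 and COL21A1 stayed under 1 CPM in every group mean.

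Among the membrane-bound collagens COL17A1 of HCC1937 stood highest per library. COL17A1 (chr10:104031286-104085957, minus strand) rose there from 29.4, 29.8 and 30.1 CPM to 45.5, 48.6 and 47.7 (0.67 ± 0.064, adjusted p = 3.76e-07). In HCC1395 EZH2i lowered it from 0.834, 1.08 and 0.945 to 0.499, 0.379 and 0.473 CPM (-1.08 ± 0.28, adjusted p = 0.00496), while AKTi (1.29, 0.929 and 1.495) and both (0.943, 0.960 and 1.35) overlapped DMSO, and HCC38 held 1.76, 1.10 and 1.44 CPM under treatment, which overlapped its DMSO libraries. COL13A1 (chr10:69801867-69964275, plus strand), of cell adhesion sites, had its widest change in HCC38, from 0.485, 0.509 and 0.197 CPM to 4.72, 2.73 and 2.49 (3.03 ± 0.36, adjusted p = 0.0002). In HCC1395 it held 2.45, 3.56 and 3.70 CPM under DMSO, 3.41, 3.33 and 2.81 under EZH2i, 4.80, 4.83 and 5.08 under AKTi and 6.64, 5.19 and 5.39 under both, and rose with AKTi (0.60 ± 0.15, adjusted p = 0.00252) and both (0.83 ± 0.15, adjusted p = 6.1e-05). HCC1937 went down from 5.603, 4.67 and 4.39 to 2.66, 4.12 and 3.58 CPM (-0.50 ± 0.16, adjusted p = 0.0147; adjusted p = 0.0546 without DMSO replicate A). Its response was lower in HCC1937 than in HCC38 by -3.56 ± 0.36, adjusted p = 9.02e-09. COL23A1 (chr5:178237618-178590555, minus strand) rose in HCC1395 with EZH2i, from 0.350, 0.228 and 0.278 CPM to 1.06, 1.31 and 1.09 (2.01 ± 0.33, adjusted p = 6.29e-05), and with both, to 1.02, 0.838 and 1.17 (1.79 ± 0.33, adjusted p = 9.11e-05), and in HCC1937 from 1.01, 0.595 and 0.854 to 1.82, 1.92 and 2.70 (1.40 ± 0.24, adjusted p = 0.000115). Its AKTi libraries held 0.387, 0.478 and 0.870 CPM; the call (0.996 ± 0.36, adjusted p = 0.0262) ended without DMSO replicate B or C, and without AKTi replicate C the change was 0.58 (adjusted p = 0.221). In HCC38 every library was at or under 0.196 CPM.

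The beaded filament genes COL6A1 and COL6A2 were among the most abundant members and changed by less than 2-fold in HCC1395. In HCC1395 COL6A1 averaged 895 ± 30.2 CPM with DMSO, 751 ± 15.5 with EZH2i, 986 ± 46.7 with AKTi and 874 ± 39.4 with both agents, and COL6A2 1166 ± 48.2, 885 ± 26.8, 1544 ± 37.7 and 1276 ± 46.6 CPM. With EZH2i both fell (-0.25 ± 0.051 and -0.39 ± 0.049, adjusted p = 0.000616 and 2.31e-06). COL6A2 rose with AKTi (0.40 ± 0.049, adjusted p = 7.75e-07). The calls of COL6A1 with AKTi (0.13 ± 0.051, adjusted p = 0.0352) and COL6A2 with both (0.12 ± 0.049, adjusted p = 0.0376) ended under RLE scaling (0.091 and 0.082, adjusted p = 0.152 and 0.157) and without several single libraries, among them DMSO replicate A (0.101 and 0.105, adjusted p = 0.162 and 0.124). In HCC1937 COL6A1 fell to 168, 187 and 197 CPM from 366, 331 and 335 (-0.91 ± 0.066, adjusted p = 2.02e-08) and COL6A2 by less (-0.33 ± 0.064, adjusted p = 0.000371). In HCC38 COL6A1 gave -0.42 ± 0.12, adjusted p = 0.0188, which was -0.28 (adjusted p = 0.0105) without EZH2i+AKTi replicate C and not called without DMSO replicate A, B or C or EZH2i+AKTi replicate B (adjusted p from 0.052 to 0.107). COL6A3 fell with both in HCC1395 (-0.66 ± 0.10, adjusted p = 3.15e-05) and rose in HCC38 (0.42 ± 0.089, adjusted p = 0.00548).

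Network-forming and remaining collagens also differed between lines. COL8A1 (chr3:99638475-99799226, plus strand) fell in HCC1395 with EZH2i, to 263, 270.1 and 274 CPM (-0.56 ± 0.054, adjusted p = 5.57e-08), and with both, to 335, 306 and 359 (-0.27 ± 0.053, adjusted p = 0.000192), and rose with AKTi, to 468, 471 and 470.0 (0.23 ± 0.053, adjusted p = 0.00124). It rose in HCC38, to 9.47, 9.66 and 8.69 CPM (0.57 ± 0.12, adjusted p = 0.00617), and in HCC1937, to 4.80, 5.80 and 4.80 (1.94 ± 0.16, adjusted p = 6.54e-08). Both line responses were above that of HCC1395, by 0.86 ± 0.11, adjusted p = 5.77e-07 and 2.20 ± 0.13, adjusted p = 1.97e-13. Its partner chain COL8A2 (chr1:36095236-36125220, minus strand) rose in HCC38 from 1.71, 2.15 and 1.86 to 9.35, 7.91 and 6.23 CPM (2.01 ± 0.19, adjusted p = 4.06e-05). In HCC1395 COL8A2 held 2.85, 3.78 and 3.28 CPM under DMSO, 4.52, 4.59 and 4.87 under EZH2i, 3.92, 4.30 and 3.70 under AKTi and 4.27, 4.09 and 4.25 under both; it rose with EZH2i (0.50 ± 0.13, adjusted p = 0.00374), and the call with both (0.34 ± 0.13, adjusted p = 0.0253) ended without DMSO replicate A or C or combination replicate A (0.24 to 0.33). COL26A1 (chr7:101362820-101559024, plus strand), found in testis and ovary, rose with each inhibitor in HCC1395. Its libraries held 0.350, 0.370 and 0.501 CPM under DMSO, 0.910, 0.864 and 0.895 under EZH2i, 0.981, 0.903 and 1.03 under AKTi and 2.58, 2.62 and 2.43 under both. Every treated library lay above every DMSO library, and every combination library above all others. The changes were 1.13 ± 0.24, adjusted p = 0.00109, 1.25 ± 0.24, adjusted p = 0.000213 and 2.63 ± 0.22, adjusted p = 1.57e-09, and the combined change was not called different from the sum of the single ones (0.26 ± 0.32, adjusted p = 0.807). HCC38 held 0.856, 0.389 and 0.282 CPM under DMSO and 0.318, 0.360 and 0.360 under treatment, and HCC1937 0.481, 0.352 and 0.187 and 0.190, 0.543 and 0.240, which overlapped in both lines. COL10A1, of growth plate cartilage, changed by 2.32 ± 0.58 with both in HCC1395 and averaged 0.445 CPM there.

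**Figure D5:**
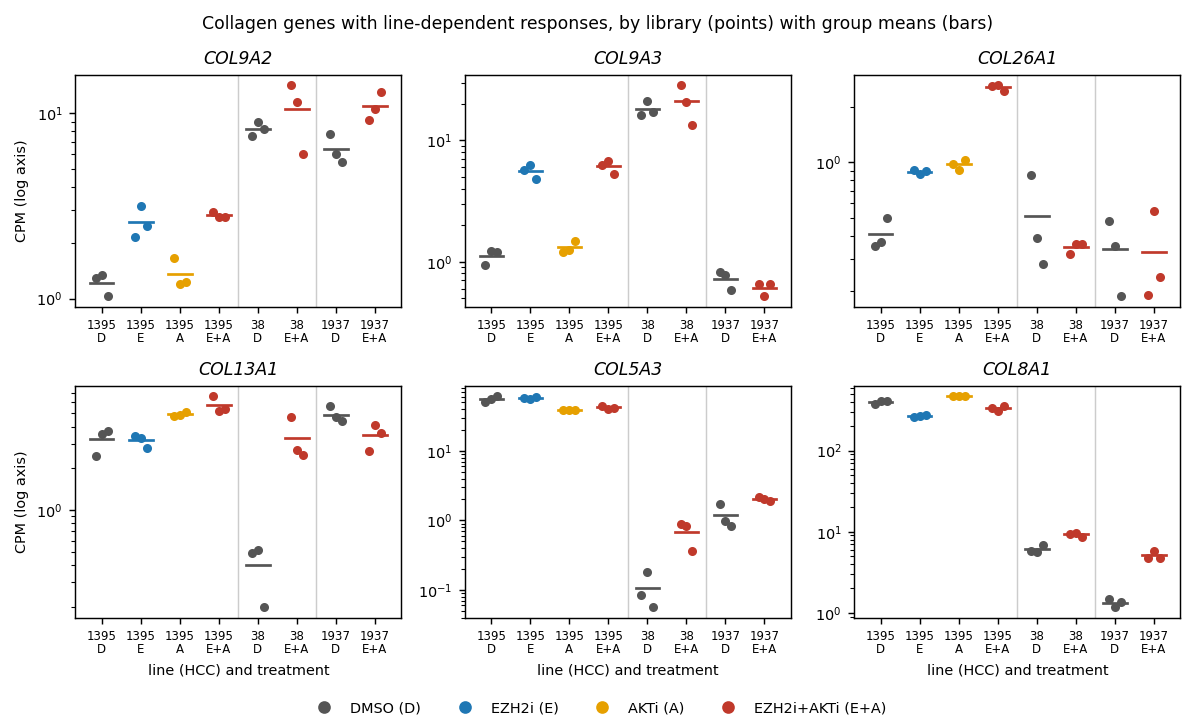
CPM (log axis) of 6 members by library (points), with group means as bars. COL9A2 and COL9A3 of HCC1395 stand higher in every library with EZH2i, COL26A1 of HCC1395 stands highest under both inhibitors, COL13A1 and COL5A3 rise in HCC38, and COL8A1 rises in HCC38 and HCC1937.

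The combination was next set against each inhibitor in HCC1395. Against EZH2i alone 14 of 37 members were higher and 8 lower (23.9 and 25.1% of all genes), and against AKTi alone 13 were higher and 8 lower (17 and 18.6%). Against AKTi 6 of 8 basement membrane members were higher and 1 lower, with a median of 0.78 beside -0.008 over all genes. Departure from additivity, the combined log2 change less the sum of the single changes, was called higher in 1 member and lower in 2, beside 0.526 and 1.06% of all genes. COL1A1 departed from the sum by -0.74 ± 0.087, adjusted p = 5.62e-05; it rose with EZH2i and fell with both. COL14A1 (-0.76 ± 0.16, adjusted p = 0.0153) and COL15A1 (0.39 ± 0.097, adjusted p = 0.0475) were called too, but single libraries decided both. The count was 1 without DMSO replicate A, AKTi replicate A or B, EZH2i replicate C or combination replicate A, and 5 without combination replicate C.

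Responses to EZH2i+AKTi were then compared between lines in the joint fit. The change in HCC38 was above that in HCC1395 for 12 of 38 members and below it for 9 (17.4 and 15.6% of all genes), that in HCC1937 above HCC1395 for 7 and below for 10 (11.3 and 12%), and that in HCC1937 above HCC38 for 5 and below for 10 (14.3 and 17.7%). The number above in the last comparison was 8 without HCC38 EZH2i+AKTi replicate A. Fibrillar members leaned up in HCC38 against HCC1395, with 5 of 9 above and 2 below and a median of 0.79. Of the 26 members tested in all 3 lines, 2 were called higher in all 3 (COL4A4 and COL14A1), none was called lower in all 3, and 8 were called higher in a line and lower in another. Over the 14980 genes tested in all 3 lines the shares were 7.8, 7.34 and 8.89%, beside 7.69, 0 and 30.8% of these members. The 8 were COL1A1, COL4A5, COL5A3, COL6A2, COL8A1, COL11A2, COL12A1 and COL13A1. For COL1A1, COL5A3, COL6A2, COL11A2 and COL13A1, and for COL14A1 among the former, a call ended without 1 library, as given above. COL7A1 was the only 1 of the 26 that was called in no line, and without HCC38 EZH2i+AKTi replicate C it was called in HCC38.

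Genes that fold, modify and secrete collagen chains in the endoplasmic reticulum had more members called lower than higher in each of these 5 comparisons with DMSO. Of 21 such genes 1 rose and 10 fell with EZH2i in HCC1395 (all genes 18.8 and 14.9%), 6 and 10 with AKTi (27.1 and 22.6%), and 4 and 16 with both (32.5 and 27.4%). In HCC38 3 rose and 9 fell (16.8 and 14.5%), and in HCC1937 4 rose and 14 fell (30.5 and 28.8%). The medians were -0.11, -0.030, -0.27, -0.29 and -0.61, beside 0.015, 0.061, 0.065, -0.014 and 0.027 over all genes. COLGALT1, which adds galactose to collagen lysines, went from 646, 649 and 658 CPM under DMSO to 267, 276 and 275 with both in HCC1395 (-1.26 ± 0.043, adjusted p = 2.05e-15), with no overlap. P4HA1, a catalytic subunit of prolyl hydroxylase, fell in all 3 lines with both inhibitors (-1.23 ± 0.061 in HCC1395, -1.01 ± 0.11 in HCC38 and -2.07 ± 0.063, adjusted p = 1.87e-12 in HCC1937). PLOD2, a lysyl hydroxylase that prepares crosslinks, went from 505, 557 and 553 to 132, 125 and 125 CPM in HCC1937 (-2.08 ± 0.06, adjusted p = 1.36e-12). In HCC1395 PLOD2 fell with EZH2i (-0.375 ± 0.044), AKTi (-0.464 ± 0.044) and both (-0.831 ± 0.044, adjusted p = 1.77e-12). Its response in HCC1937 lay below that in HCC38 by -2.82 ± 0.115, adjusted p = 8.15e-17. That gap is wider than the HCC1937 fall itself, so PLOD2 changed upward in HCC38, unlike in HCC1395 and HCC1937. PLOD1, of the same family, fell in HCC1395 with EZH2i (-0.42 ± 0.048), AKTi (-0.215 ± 0.047) and both (-0.73 ± 0.048, adjusted p = 4e-11). It also fell in HCC38 (-0.97 ± 0.11, adjusted p = 0.000181) and in HCC1937 (-1.78 ± 0.055, adjusted p = 2.09e-12).

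Processing enzymes outside the cell and collagen receptors were mixed. Of 12 processing and crosslinking genes tested in HCC1395, 6 rose and 2 fell with EZH2i (all genes 18.8 and 14.9%), 1 and 3 with AKTi (27.1 and 22.6%) and 4 and 5 with both (32.5 and 27.4%), while HCC38 gave 2 and 2 of 12 (16.8 and 14.5%) and HCC1937 7 and 2 of 11 (30.5 and 28.8%). The counts of HCC38 lay near those shares. The lysyl oxidase LOX rose with EZH2i (0.81 ± 0.066), AKTi (0.40 ± 0.067) and both (0.95 ± 0.066, adjusted p = 1.01e-10) in HCC1395, and its relative LOXL2 fell with EZH2i (-0.59 ± 0.048) and both (-0.69 ± 0.048, adjusted p = 8.45e-11). LOXL2 also fell in HCC38 (-0.44 ± 0.10) and HCC1937 (-0.64 ± 0.056, adjusted p = 1.5e-07). Beside the same shares, of 9 collagen receptors tested in HCC1395 2 rose and 2 fell with EZH2i, 5 rose and none fell with AKTi, and 7 rose and 1 fell with both, while 4 of 8 rose and none fell in HCC38 and 4 rose and 2 fell of 7 in HCC1937. ITGA1, an integrin subunit that binds type IV collagen, rose with EZH2i in HCC1395 from 0.457, 0.911 and 0.528 to 3.23, 3.603 and 3.61 CPM (2.47 ± 0.24, adjusted p = 6.24e-08). With EZH2i+AKTi it rose in HCC38 from 0.799, 1.35 and 1.41 to 4.53, 5.16 and 7.22 CPM (2.21 ± 0.25, adjusted p = 0.000134) and in HCC1937 from 1.64, 1.81 and 1.89 to 9.72, 7.32 and 6.94 (2.16 ± 0.15, adjusted p = 1.44e-08). ITGA2, the subunit of the type I collagen receptor, rose in HCC38 from a mean of 35.4 ± 5.599 to 249.9 ± 49.3 CPM (SD, n = 3; 2.79 ± 0.16, adjusted p = 2.86e-06) and in HCC1937 from 144, 175 and 179.6 to 516, 483 and 439 (1.52 ± 0.089, adjusted p = 2.65e-08). In HCC1395 ITGA2 rose with AKTi (1.34 ± 0.15, adjusted p = 4.6e-06) and both (1.48 ± 0.15, adjusted p = 1.05e-06). It was not called there with EZH2i (0.235 ± 0.158, adjusted p = 0.288). ITGA1 rose with both in HCC1395 too (2.52 ± 0.235, adjusted p = 9.35e-09). DDR1, a receptor tyrosine kinase for collagen, rose with AKTi (0.50 ± 0.047) and both (0.62 ± 0.047, adjusted p = 3.5e-10) in HCC1395. DDR1 fell in HCC1937 (-0.285 ± 0.074, adjusted p = 0.00409). ITGB1 fell in HCC1395 with EZH2i, from a mean of 2440 to 1713 CPM (-0.505 ± 0.059, adjusted p = 8.98e-07), and with both (-0.501 ± 0.059, adjusted p = 2.58e-07). It was not called there with AKTi and fell in HCC1937 (-0.393 ± 0.07, adjusted p = 0.000193).

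Non-collagen partners of the basement membrane were called in both directions in HCC1395 and HCC1937. Of 15 laminin, nidogen, perlecan, agrin and peroxidasin genes, 3 rose and 7 fell with EZH2i in HCC1395 (all genes 18.8 and 14.9%), 8 and 1 with AKTi (27.1 and 22.6%) and 7 and 3 with both (32.5 and 27.4%). HCC38 gave 10 higher and none lower of 15 (16.8 and 14.5%), with a median of 0.62 beside -0.014 over all genes, and HCC1937 7 higher and 5 lower of 14 (30.5 and 28.8%). NID1, which bridges laminin and type IV collagen, rose in HCC1395 from 46.0, 52.3 and 46.3 to 96.8, 102 and 99.1 CPM with EZH2i (1.05 ± 0.084, adjusted p = 4.88e-08) and to 122, 103 and 139 with both (1.32 ± 0.084, adjusted p = 5.68e-10). It rose in HCC1937 too (1.90 ± 0.15, adjusted p = 4.77e-08). LAMB1 and LAMB2, laminin beta chains, rose with AKTi in HCC1395 (0.93 ± 0.058 and 0.95 ± 0.045, adjusted p = 4.13e-11 and 7.01e-13). LAMB3, a chain of the epithelial laminin, rose with AKTi too (0.687 ± 0.045, adjusted p = 7.15e-11). With EZH2i LAMB3 (-0.56 ± 0.045, adjusted p = 4.77e-09) and LAMB2 (-0.418 ± 0.045, adjusted p = 3.25e-07) fell, and LAMB1 was not called. NID2 (3.10 ± 0.31, adjusted p = 5.96e-05) rose in HCC38, and LAMA4 rose in HCC1937 (0.96 ± 0.059, adjusted p = 2.73e-09).

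Of the 44 members 11 had a group mean under 1 CPM in all 8 groups: COL2A1, COL3A1, COL6A5, COL6A6, COL9A1, COL10A1, COL11A1, COL20A1, COL21A1, COL25A1 and COL28A1. COL6A5 had no counts in 22 libraries. COL11A1, the partner of COL11A2, averaged 0.220 CPM in HCC1395 and had no counts in any HCC1937 library, where 3 counts would be 0.0625 to 0.0814 CPM. Of the 11, COL9A1 and COL10A1 were called against DMSO in HCC1395 as given above. COL11A1 was called between the combination (0.0770, 0.0613 and 0.150 CPM) and AKTi (0.310, 0.319 and 0.190 CPM) in HCC1395, with -1.56 ± 0.55, adjusted p = 0.0304. That call ended without AKTi replicate A or B or combination replicate A or B (adjusted p from 0.0903 to 0.142), with DESeq2 (adjusted p = 0.051) and with no filter on low counts (adjusted p = 0.0878). For COL6A5 and COL11A1 a difference between treatments of HCC1937 was not detectable at this depth.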

How the data were processed

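Polyadenylated RNA of 24 libraries was analysed from the raw counts per gene that the authors deposited, 1 file for each library. Per the submitters' processing notes reads were trimmed with fastp, aligned to hg38 with HISAT2 (version 2.0.5) and compared with DESeq2. No source used here gives the read counter, the annotation release or the strandedness, so overlapping genes on opposite strands may share reads. The authors' deposited normalised tables were not used.

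Groups and replicate letters came from the labels. Each line was fitted alone in R 4.3.3 with edgeR 4.0.16 (quasi-likelihood test, robust, TMM scaling, filterByExpr at a minimum count of 10). Comparisons between lines came from 1 fit of all 24 libraries. Benjamini-Hochberg adjustment ran over all genes tested, and the standard error is the log2 change divided by the square root of F. The fits were tested on simulated data. CPM use the TMM factors of the joint fit, and levels per kb use GENCODE 29 exon lengths. Replicates were compared first, and no libraries were counted as duplicates. RefSeq promoters (GRCh38.p14) matched 32 of the 44 members.

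The members and lists were chosen with earlier results of these data known. Library values are printed for members at 1 CPM or more in a group that were called with a change of at least 2-fold in a comparison with DMSO, and for the 3 type IV pairs. Other members are named with fewer values. From each partner list the 2 genes with the smallest p per comparison may be named. A gene so named may be given for other comparisons too. Alternatives were RLE scaling, no filter on low counts, a filter that asks for 1 CPM in 3 libraries, DESeq2 1.42.0, a replicate block, only the 2 groups compared, and leaving out each library. Intervals are not given for levels, and limits at 3 counts cover counting error only.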

Additional observations from a re-analysis of the deposited data

Results flagged for a closer look

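Members are listed here where the change under EZH2i+AKTi was called different between lines and either differed by at least 4-fold or was called in opposite directions, or where the combination was called different from the sum of the single changes. All values are differences of log2 changes from edgeR's quasi-likelihood test.

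Against HCC1395, HCC38 changed less or more downward in COL4A5 (-4.377), COL26A1 (-3.191), COL9A3 (-2.253) and COL11A2 (-1.726). It changed more upward in COL5A3 (3.097), COL13A1 (2.229), COL4A6 (2.095) and COL8A1 (0.865). COL4A6 fell in HCC1395 and was not called in HCC38.

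Against HCC1395, HCC1937 gave negative differences in COL4A5 (-4.926), COL9A3 (-2.696), COL26A1 (-2.684), COL13A1 (-1.328) and COL12A1 (-0.919). It gave positive differences in COL8A1 (2.202) and COL5A3 (1.186). COL4A5, COL26A1 and COL9A3 were thus negative in both lines, and both comparisons share the HCC1395 libraries. COL4A5 had 5, 10 and 3 counts in the DMSO libraries of HCC1395, so the sizes of its differences rest on few counts.

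Between HCC1937 and HCC38 the difference was -3.556 for COL13A1, -1.547 for COL12A1, 2.237 for COL11A2 and 2.809 for COL22A1. COL22A1 rests on few counts in HCC1937, where every library was at or under 0.543 CPM. Its call ended without HCC38 DMSO replicate C (2.349), HCC1937 DMSO replicate A (2.331) or HCC1937 EZH2i+AKTi replicate B (2.084).

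In HCC1395 the combination departed from additivity in COL1A1 (-0.737), COL14A1 (-0.756) and COL15A1 (0.387).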

How the results depend on the processing

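Of 5352 values of single members under the alternatives, 5141 kept direction and side of the threshold, 154 lost the call, 57 gained it and 0 reversed. The number of members departing from additivity (3) ranged from 1 to 5 when a library was left out. COL14A1 lost that call without 6 single libraries, and COL15A1 without 9 and with the replicate block (0.386, adjusted p = 0.0703). The cause was not tested. The replicate letters did not pair the libraries: correlations of same-letter deviations ran from -0.032 to 0.069 in HCC38, -0.141 to -0.038 in HCC1937 and -0.051 to 0.043 in HCC1395. With the replicate block the numbers of members called were 22 for EZH2i, 19 for AKTi, 26 for both, 22 and 22 for both against each single agent, 2 for additivity, 14 in HCC38, 20 in HCC1937, 31, 30 and 25 for the line comparisons and 23, 16 and 15 for the response differences. Depth limits the members under 1 CPM in all groups.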
